A study of Mus musculus with 20 samples.

Results

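The genes described here encode the proteins of the cytoplasmic ribosome. They were taken by name: every protein-coding gene whose symbol is Rpl or Rps followed by a digit, with Rpsa, Rplp0, Rplp1 and Rplp2, and without pseudogene names and the Rps6k kinases. The rule found 86 of the 55573 genes in the count files, made of 46 large subunit proteins, 31 small subunit proteins, 8 paralogues or copies (Rpl3l, Rpl7l1, Rpl10l, Rpl22l1, Rpl36al, Rpl39l, Rps27l and Rps27rt) and Rps19bp1, which encodes a binding partner of Rps19 and no ribosomal protein. Of these, 84 passed the filter on low counts. Rpl10l had 0 counts in every library, which allows at most 0.00714 CPM (counts scaled to a common library size) over all libraries, and Rpl3l had 46 counts in all. Fau and Rack1 encode ribosomal proteins under other names and were followed among related genes.

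RNA came from sorted bone marrow cells of C57BL/6 mice aged 7 to 9 weeks, with no allele or treatment named in the labels. Within cells that lack lineage antigens and carry Sca-1 and c-Kit, haematopoietic stem cells (HSC) were sorted as CD150+CD48- and multipotent progenitors (MPP) as CD150-CD48-, and each was split by surface leptin receptor (Lepr). The resulting 4 groups, named by receptor and cell type (Lepr- HSC and so on), had 5 libraries each, from 1000 to 8000 cells of 2 pooled mice per library. The labels give 2 mice for each replicate, and libraries of 1 replicate number carry the same date code in all 4 groups, so a number was taken as 1 pool of mice and libraries sharing it as pairs. The labels do not say what the date code marks.

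The ribosome joins a small subunit, which reads the messenger RNA, to a large subunit, which forms the peptide bond. Its proteins are needed in fixed proportion, and their messenger RNAs are short, abundant and known for a start in a run of pyrimidines that lets the cell adjust their translation together. Adult HSC are known for a low rate of protein synthesis, and blood cell formation is sensitive to loss of single ribosomal proteins, as in Diamond-Blackfan anaemia.

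Sequences around the annotated starts were searched for 2 short pyrimidine motifs. RefSeq's promoter table (GRCm38.p6) held 66 of the 86 genes with 78 starts. The windows run from 20 bases before to 20 bases after the start on the gene's strand, and capitals mark CTTTCC or CTTCC. Rpl38 and Rpl28 are among the 12 members with the longer motif, and Rps27 is shown with its copy Rps27rt and its paralogue Rps27l.
Rpl38, chr11:114668560-114668599, plus strand: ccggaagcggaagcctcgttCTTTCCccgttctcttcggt
Rpl28, chr7:4792945-4792984, plus strand: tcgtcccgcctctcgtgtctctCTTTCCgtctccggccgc
Rps27, chr3:90213629-90213668, minus strand: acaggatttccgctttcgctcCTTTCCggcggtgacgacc
Rps27rt, chr9:114982720-114982759, minus strand: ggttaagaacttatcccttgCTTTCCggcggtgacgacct
Rps27l, chr9:66946066-66946105, plus strand: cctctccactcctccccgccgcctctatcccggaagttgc
Rpl39l, chr16:10170208-10170247, plus strand: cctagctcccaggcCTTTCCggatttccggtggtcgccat
CTTTCC on the gene's strand lay in 15.4% of member windows and in 1.95% of all 32851 windows in the table. On the other strand, where it reads GGAAAG, it lay in 0 of 78 member windows and in 1.74% of all. CTTCC, which neither contains nor lies within CTTTCC, was in 23.1% of member windows and 8.81% of all, and its reverse GGAAG in 17.9% and 9.82%. Rps27 and its copy Rps27rt share the motif and the bases after it, while the bases just before it differ. The Rps27l window holds neither motif on its own strand. A match is a description of these letters only.

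The members were spread over 19 chromosomes, with 14 on chromosome 7 and 4 on the X. By mean CPM over the 20 libraries they ranged from 0 for Rpl10l to 3630 for Rplp0, the base of the stalk that recruits translation factors. Per kilobase of principal transcript, Rps18, Rps14 and Rps19 had the highest levels, at 4009, 3534 and 3108 CPM per kilobase. All 60 subunit genes with no overlapping exon of another gene lay between 268 and 3630 CPM. The 7 members whose principal transcript was over 50 percent overlapped lay between 0.947 and 943 CPM. Rpl24 at 0.947 CPM, 71.5% overlapped by Gm28037, and Rps10 at 2.85 CPM, 63.6% overlapped by genes including the RPS10-NUDT3 read-through, were the lowest subunit genes. Reads falling on 2 genes, or aligning to several places as reads on the many processed pseudogenes can, were left uncounted, so these levels are uncertain. The 300 named ribosomal protein pseudogenes in the files took between 0.02 and 0.05% of gene counts.

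The summed share of the members followed the replicate number more than the cell group. In Lepr- HSC the members took 6.34, 7.55, 4.28, 9.80 and 11.4% of gene counts in replicates 1 to 5. In Lepr+ HSC the shares were 6.16, 8.28, 4.23, 9.32 and 11.6%. In Lepr- MPP they were 5.60, 5.73, 5.14, 8.19 and 7.76%, and in Lepr+ MPP 4.36, 5.39, 4.20, 10.4 and 9.51%. Replicate 3 was lowest in all 4 groups, and replicates 4 and 5 were above the other numbers in every group, while the 4 groups overlapped. The mean difference between Lepr+ and Lepr- HSC was 0.0526 percentage points ± 0.457 (SD, n = 5 pairs). That between Lepr+ and Lepr- MPP was 0.286 ± 1.58, that between HSC and MPP was 1.38 ± 1.63 among Lepr- cells and 1.15 ± 1.63 among Lepr+ cells, and none exceeded its SD over pairs. HSC were higher in 4 of 5 pairs in each of the last comparisons, with replicate 3 the exception among Lepr- cells (-0.862) and replicate 4 among Lepr+ cells (-1.08).

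**Figure D1:**
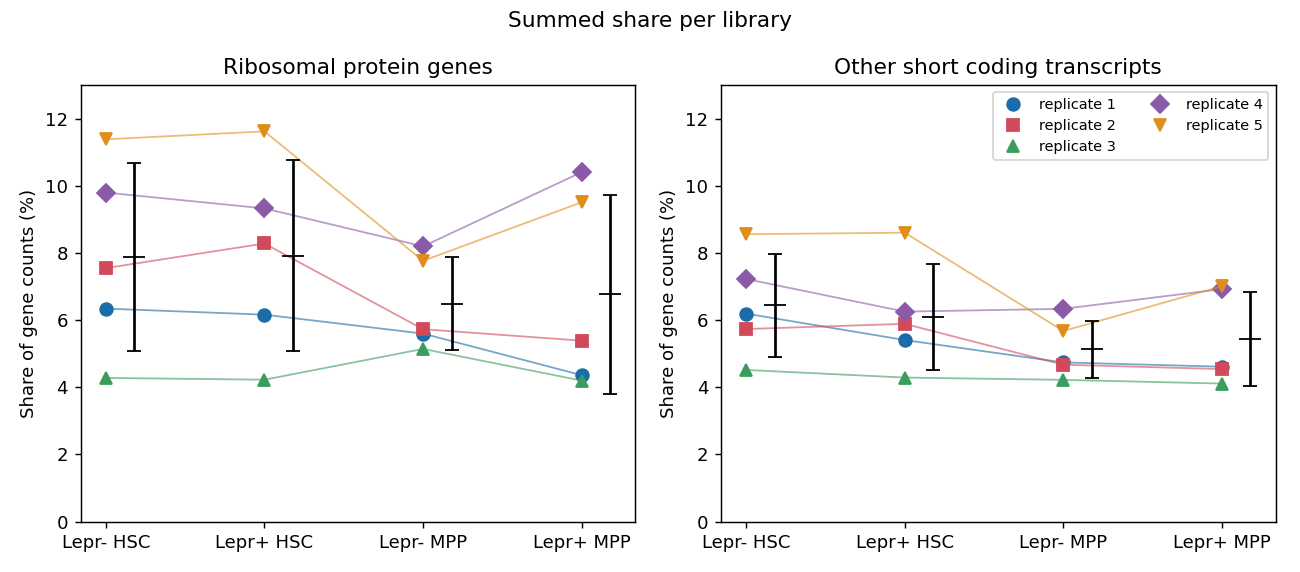
Percent of gene counts (y axis) per library in the 4 groups (x axis), for the ribosomal protein genes (left) and for other coding genes with a principal transcript under 1000 bases (right). Lines join libraries of 1 replicate number, and black marks give the mean and SD over 5 libraries. Replicates 4 and 5 lie above replicates 1, 2 and 3 in every group on the left.

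Several properties of the libraries moved with the share, and their part in it was not tested. Gene counts per library were 26776464 to 31589794 in replicate 3 and 9532993 to 15052009 in replicates 4 and 5. Other short coding genes took 4.11 to 4.52% of counts in replicate 3 and 5.68 to 8.60% in replicate 5, and the share of read pairs without a unique alignment was 7.27 to 8.16% in replicate 3 and 10.6 to 14.5% in replicate 5. The mitochondrially encoded genes took 0.787 to 1.24% of counts in replicate 3 and 1.77 to 4.46% in replicate 5, with 3.03 and 4.46% in Lepr+ MPP replicates 4 and 5. Between 20841 and 21873 genes had a count in replicate 3, and between 14972 and 18899 in replicates 4 and 5. The month in the date code did not order the shares, since replicates 1, 3 and 5 all carry June. Pool of mice, date code and depth cannot be told apart.

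The spread between replicate numbers involved most members at once. In an edgeR quasi-likelihood F test with group in the model, chosen after the shares were seen, 73 of the 84 members tested (86.9%) differed between replicate numbers, where 24.7% of all genes tested did. High and short genes did so in general: the figure was 66.6% of other genes with at least 100 CPM, 51.9% of other coding genes with a principal transcript under 1000 bases and 93.4% of the 181 genes that were both. The median member stood at -0.47, -0.06, -0.77, 0.63 and 0.68 on the log2 scale in replicates 1 to 5 relative to their mean. The 181 other short genes stood at -0.34, -0.10, -0.53, 0.49 and 0.53. Members moved the same way as other short, abundant transcripts, over a wider range.

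**Figure D2:**
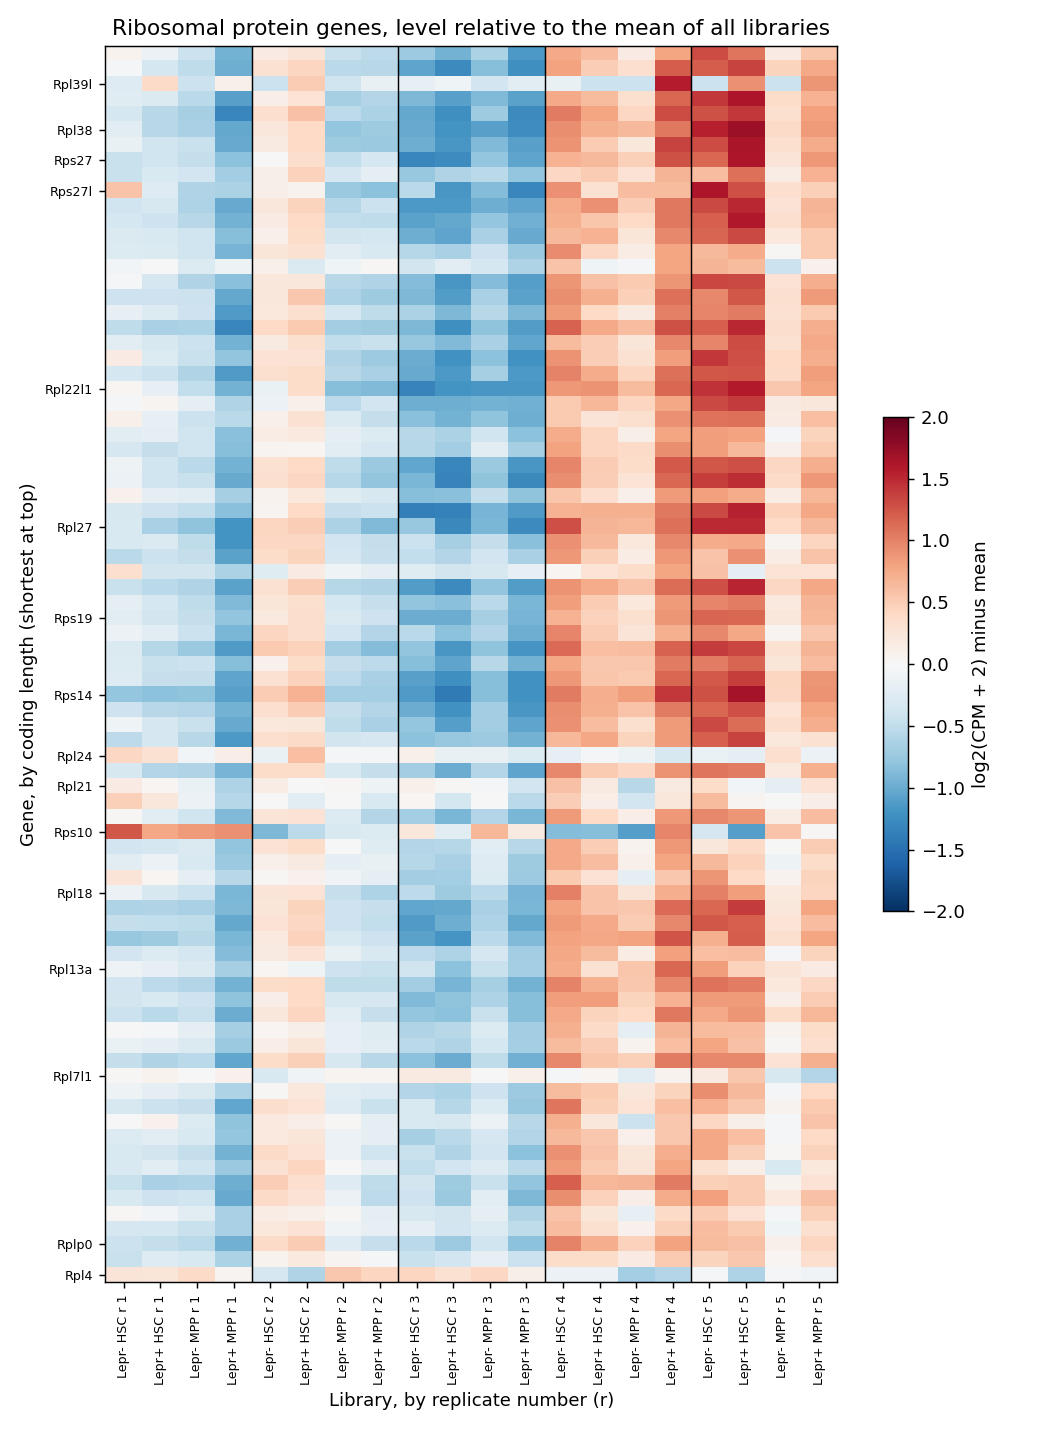
Level of 81 of the tested genes (rows, shortest coding length at the top, some labelled) in 20 libraries (columns, in blocks of replicate number), as log2(CPM + 2) minus the gene's mean, red above and blue below. Most rows are blue in replicates 1 and 3 and red in replicates 4 and 5, with Rpl4 and Rpl7l1 among the exceptions.

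Rps14, a small subunit protein needed for assembly of that subunit, showed the widest move among members with at least 100 CPM. Its level was 1279, 3126, 999, 4546 and 5304 CPM in replicates 1 to 5 of Lepr- HSC and 1248, 3546, 829, 3643 and 6967 CPM in Lepr+ HSC. In Lepr- MPP it was 1257, 1366, 1217, 3920 and 2937 CPM, and in Lepr+ MPP 1040, 1366, 954, 5839 and 4096 CPM. Replicates 1 and 3 were low and replicates 4 and 5 high in every group, and the groups overlapped throughout. Between replicates 4 and 5 and replicates 1 and 3 the log2 level of Rps14 differed by 2.04. The corresponding difference was 1.85 for Rpl38, a large subunit protein known for a role in translating Hox messenger RNAs, and 1.87 for Rpl27.

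Rpl4, a large subunit protein near the exit tunnel and the longest of these genes by coding sequence, went the other way. It stood at 1679, 1110, 1872, 1284 and 1377 CPM in replicates 1 to 5 of Lepr- HSC and at 1658, 921, 1726, 1288 and 910 CPM in Lepr+ HSC. In Lepr- MPP it was at 1812, 2039, 1868, 869 and 1353 CPM, and in Lepr+ MPP at 1452, 1875, 1522, 929 and 1328 CPM. Its log2 level was -0.56 in replicates 4 and 5 relative to 1 and 3, and the F test between replicate numbers missed the threshold (edgeR, adjusted p = 0.117). Rpl7l1, a paralogue of Rpl7 known in ribosome assembly, stood at -0.12 on the same measure. Rpl21 (0.21), Rpl29 (0.27) and Rps4x (0.55) also missed the threshold, as did Rpl24, Rps10, Rpl36al, Rpl39l and Rps19bp1, all with a mean under 100 CPM.

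The size of this difference went with coding length. Over the 74 members with at least 100 CPM, Spearman's rho between coding length and the log2 difference of replicates 4 and 5 from 1 and 3 was -0.59 (Pearson's r -0.61), as a description across genes that share the same libraries. All 38 members with a coding sequence of at most 453 bases, the median, lay between 1.02 and 2.04. The 36 longer ones lay between -0.56 and 1.66, with a median of 1.03 against 1.58 for the shorter ones. Over the 181 other short, abundant genes rho was -0.09 and the median difference 0.94, and over all genes tested the median was -0.14. The split of replicate numbers was chosen after the shares were seen.

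**Figure D3:**
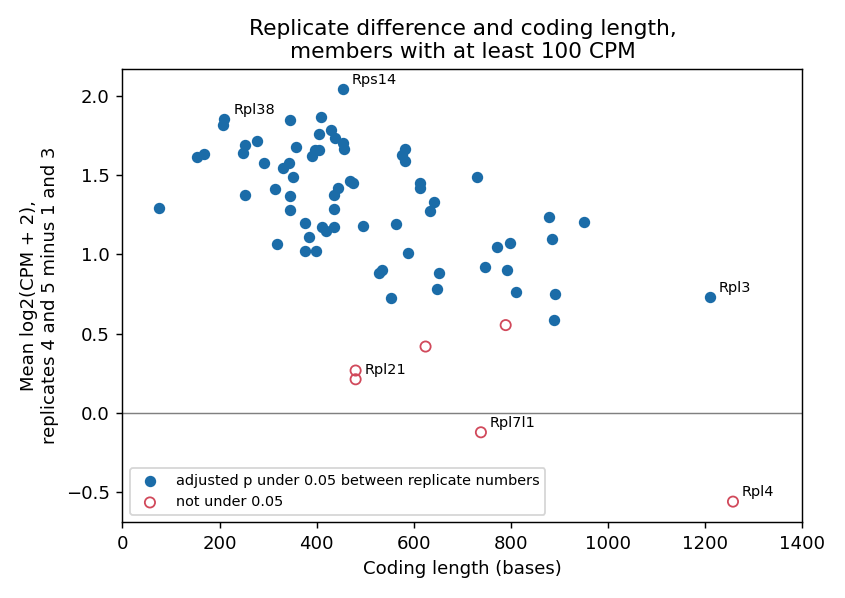
Difference in mean log2(CPM + 2) between replicates 4 and 5 and replicates 1 and 3 (y axis) against coding length in bases (x axis), 1 point for each of 74 members with at least 100 CPM. Filled points passed the test between replicate numbers. Short members lie above 1 and Rpl4, the longest, lies at -0.56.

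The balance of the subunits moved too. Summed large subunit counts were 1.21 to 1.32 times the small subunit counts in the 4 libraries of replicate 3 and 0.926 to 1.02 times in those of replicate 5. Replicate 1 lay at 1.16 to 1.21, replicate 2 at 1.02 to 1.23 and replicate 4 at 0.952 to 1.08. The ranges of replicates 3 and 5 did not overlap.

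The design compares Lepr+ with Lepr- cells within each sorted type, and first within HSC. No member passed the edgeR test at an adjusted p of 0.05, where 0.103% of all genes tested did, and 0 members had an unadjusted p under 0.05, against 6.96% of all genes. DESeq2, limma voom and the edgeR fit with replicate number as a block also called 0 members, where they called 1.1, 0.109 and 1.02% of all genes. They had 1, 0 and 2 members at an unadjusted p under 0.05, against 8.37, 7.35 and 11.8% of all genes. The median log2 fold change was -0.08, beside -0.00 for all genes, and 24 members were above 0 and 60 below, where 49.6% of all genes were above 0. Within replicate pairs the median member difference was -0.10, 0.10, -0.13, -0.28 and -0.00. Single libraries moved it, to 0.11 without Lepr- HSC replicate 5, which turned its sign, and to -0.32 without Lepr+ HSC replicate 5. In bulk samples such as these, fewer cells of a type and less RNA per cell cannot be told apart.

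Among members with at least 5 CPM in the higher group, the lowest fold changes in that comparison were those of Rps27l (-0.45 ± 0.48 SE, log2), Rpl29 (-0.37 ± 0.19) and Rpl13a (-0.33 ± 0.42). The highest, with the same limit, were those of Rps27rt (0.37 ± 0.58), Rps27 (0.24 ± 0.53) and Rps9 (0.20 ± 0.51). Adjusted p-values were 0.765 for Rpl29 and 1.00 for the others in edgeR. Across pairs, 12 of 84 members were lower in Lepr+ HSC in all 5, where 8.8% of all genes tested were, among them Rps27l, Rpl29, Rps15 and Rpsa. Higher in all 5 were 2, Rpl23a and Rps27rt, where 6.83% of all genes were. Megakaryocyte and platelet markers also differed between these groups, with sums of 1869 to 4753 CPM in Lepr- HSC and 502 to 1731 CPM in Lepr+ HSC, and Pf4 and Itga2b fell with the replicate block. Of 8 stem and progenitor markers, Procr and Hlf rose in Lepr+ HSC without the block, and Ly6a and Mecom as well with it. Erythroid markers had a median of -1.55 (log2), with 0 of 10 called in either fit. All genes were called at 0.103% without and 1.02% with the block. Their part in the values of single members was not tested.

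Between Lepr+ and Lepr- MPP, again 0 members were called in edgeR, against 0.2% of all genes, and 1, Rpl39l, had an unadjusted p under 0.05, against 4.41% of all genes. The block and limma voom called 0 members, with 0.103 and 0.357% of all genes, and DESeq2 called 1, also Rpl39l. Each had 1 member at an unadjusted p under 0.05, against 6.63% of all genes for the block, 5.36% for DESeq2 and 4.65% for limma voom. The median was 0.17, with 79 members above 0 and 5 below, beside a median of 0.01 for all genes, of which 51.3% were above 0. That shift rested on 2 pools: within pairs the median was -0.44, -0.09, -0.35, 0.57 and 0.41 in replicates 1 to 5. It was -0.15 without Lepr+ MPP replicate 4, -0.00 without Lepr+ MPP replicate 5 and 0.01 with the replicate block, and limma voom put 25 members above 0 and 59 below. Rps21 (0.42 ± 0.54), Rps27 (0.41 ± 0.53) and Rps28 (0.34 ± 0.56) had the highest and Rpl4 (-0.16 ± 0.25), Rpl29 (-0.08 ± 0.19) and Rps27l (-0.01 ± 0.47) the lowest fold changes among members with at least 5 CPM. Lepr+ MPP replicates 4 and 5 were, with Lepr+ HSC replicate 5, the 3 libraries least like their own group.

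Between HSC and MPP among Lepr- cells, 82 of 84 members were above 0, with a median of 0.47, beside 0.01 for all genes, of which 50.5% were above 0. By subunit, 45 of 46 large and 30 of 31 small subunit genes were above 0, with medians of 0.45 and 0.50. Within pairs the median was 0.20, 0.56, -0.16, 0.52 and 0.80 in replicates 1 to 5, so replicate 3 went against the rest. It was 0.43 in the libraries with a June date code and 0.47 in those with a July code. Other short coding genes also took more of the counts in Lepr- HSC, at 6.19, 5.73, 4.52, 7.22 and 8.56% in replicates 1 to 5. In Lepr- MPP they took 4.74, 4.67, 4.22, 6.34 and 5.68%. Whether the members rose beyond other short, abundant genes was not tested. In edgeR 0 members were called, where 2.73% of all genes were, and 4 had an unadjusted p under 0.05, against 12.3% of all genes. DESeq2 and limma voom called 0, against 5.11 and 3.96% of all genes, with 4 and 2 at an unadjusted p under 0.05, against 14.2 and 14% of all genes.

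With replicate number as a block, which takes the difference between pools out of the spread, 3 members rose in Lepr- HSC over Lepr- MPP. The block called 7.49% of all genes in this comparison, so 3 of 84 is below the share over all genes. At an unadjusted p under 0.05 it had 32 of 84 members, against 20% of all genes. The 3 were Rps27l (0.78 ± 0.18 SE, adjusted p = 0.0148), Rpl18 (0.51 ± 0.15, adjusted p = 0.0427) and Rps15 (0.54 ± 0.16, adjusted p = 0.0499), by edgeR's quasi-likelihood test. Without the block the same genes stood at 0.84 ± 0.48, 0.61 ± 0.38 and 0.64 ± 0.38, with adjusted p from 0.537 to 0.607.

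Rpl18, a large subunit protein on chromosome 7 (GRCm38 chr7:45715457-45720836, plus strand), stood at 696, 904, 527, 1520 and 1525 CPM in replicates 1 to 5 of Lepr- HSC. In Lepr- MPP it stood at 560, 548, 516, 903 and 863 CPM. It was higher in HSC in all 5 pairs, least in replicate 3, and its exons overlap those of Sphk2. Rps15, a small subunit protein involved in export of the subunit from the nucleus, stood at 567, 828, 422, 1218 and 1201 CPM in Lepr- HSC and at 457, 470, 410, 736 and 642 CPM in Lepr- MPP. The groups overlapped for both genes, and the pairs did not cross. Rpl27 (0.79 ± 0.57) had the next highest fold change after Rps27l, and Rpl4 (-0.12 ± 0.25), Rpl3 (0.08 ± 0.25) and Rpl7l1 (0.11 ± 0.16) the lowest among members with at least 5 CPM. In all, 12 of 84 members were higher in Lepr- HSC in 5 of 5 pairs, where 12.8% of all genes tested were, and 72 in at least 4, where 27.8% of all genes were.

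Between HSC and MPP among Lepr+ cells, the median was 0.22, with 77 members above 0, beside -0.02 and 48.4% for all genes. Within pairs it was 0.54, 0.82, 0.04, -0.34 and 0.39, and it was -0.03 without Lepr+ HSC replicate 5. Other short coding genes took 5.41, 5.89, 4.29, 6.25 and 8.60% of counts in replicates 1 to 5 of Lepr+ HSC. In Lepr+ MPP they took 4.61, 4.54, 4.11, 6.92 and 7.01%, less than in HSC in every replicate but replicate 4. In edgeR 0 members were called, where 0.466% of all genes were, and 0 had an unadjusted p under 0.05, against 7.88%. The block called 0 as well, against 1.77% of all genes, with 14 members at an unadjusted p under 0.05 against 13.6% of all genes. DESeq2 and limma voom called 0, against 2.08 and 0.763% of all genes, with 0 at an unadjusted p under 0.05, against 9.39 and 9.77%. Rpl23a (0.57 ± 0.50), Rpl35 (0.52 ± 0.45) and Rpl22l1 (0.47 ± 0.60) stood highest among members whose higher group reached 5 CPM, and Rps19bp1 (-0.18 ± 0.28), Rpl4 (-0.13 ± 0.25) and Rpl13a (-0.10 ± 0.42) lowest. Below 5 CPM, Rpl24 stood at 0.78 and Rps10 at -1.17. Rpl23a, Rpl35 and Rpl13a are overlapped by other genes over more than 50 percent of their principal transcript.

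The difference between the Lepr effects in HSC and in MPP, tested as an interaction in edgeR, called 0 members and 0% of all genes. An unadjusted p under 0.05 was found for 0 members and 3.2% of all genes. The block, DESeq2 and limma voom called 0 members as well (0, 0.115 and 0% of all genes), with 0 at an unadjusted p under 0.05, against 5.03, 3.79 and 3.25% of all genes. The median was -0.27, with 7 members above 0 against 48.3% of all genes, and it became 0.07 without Lepr+ MPP replicate 4. Rps16 (-0.45 ± 0.76) and Rpl13a (-0.45 ± 0.60) were among the lowest members with at least 5 CPM in a group, and Rpl7l1 (0.09 ± 0.23), Rps27rt (0.07 ± 0.82) and Rpl23a (0.05 ± 0.71) were the highest of these. These comparisons share groups, so their values are given side by side and were not set against each other.

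**Figure D4:**
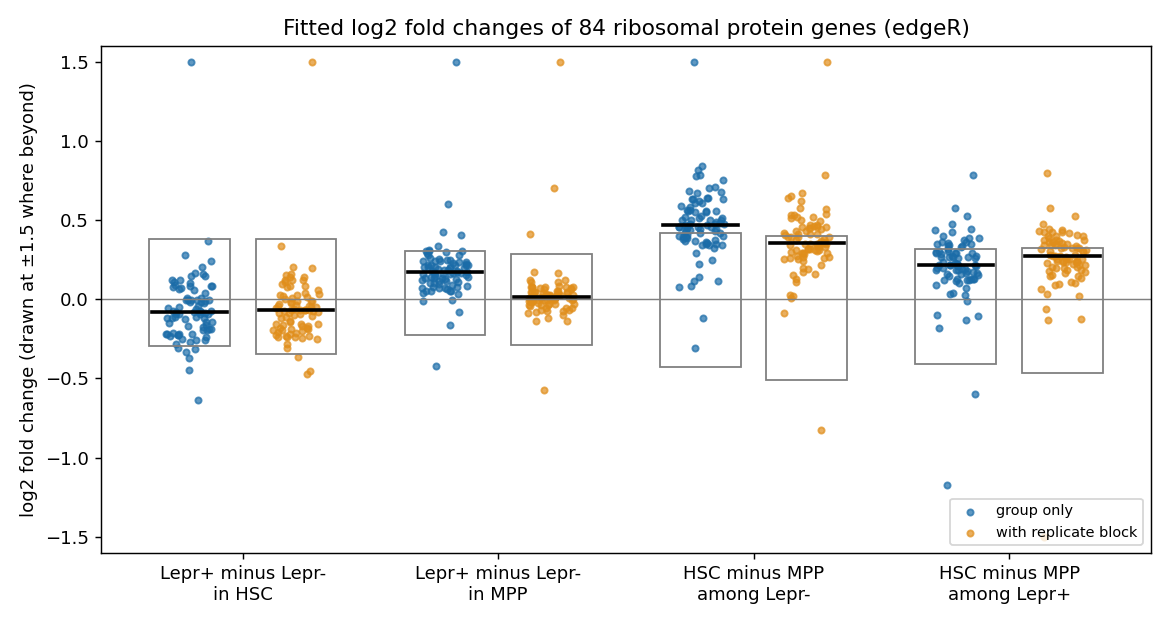
Fitted log2 fold change (y axis) of the 84 tested members, 1 point a gene, in 4 comparisons (x axis), without (blue) and with (orange) the replicate block. Black lines are the members' medians and grey boxes the quartiles over all genes tested. In HSC against MPP the members' medians (0.47 and 0.35 among Lepr-, 0.22 and 0.27 among Lepr+) lie above 0, and between Lepr+ and Lepr- cells they lie near it.

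Rps19, Rps24, Rps26, Rpl5, Rpl11 and Rpl35a, all mutated in Diamond-Blackfan anaemia, had fold changes of -0.14 to -0.05 between Lepr+ and Lepr- HSC. They stood at 0.11 to 0.22 between Lepr+ and Lepr- MPP and at 0.36 to 0.64 between HSC and MPP among Lepr- cells. Their lowest adjusted p in edgeR over these comparisons was 0.628, and 0.0701 with the block. Rps19 itself, the gene most often mutated in that disease, had a mean of 2737 ± 1469 CPM (SD, n = 5) in Lepr- HSC, 2647 ± 1418 in Lepr+ HSC, 1967 ± 589 in Lepr- MPP and 2270 ± 1318 in Lepr+ MPP. The stalk proteins Rplp0, Rplp1 and Rplp2 lay at 0.40 to 0.62 between HSC and MPP among Lepr- cells and at -0.08 to 0.08 between Lepr+ and Lepr- HSC, with no call in either fit.

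Rps27l, a paralogue of Rps27 known as a target of p53, did not keep a constant ratio to that partner. Rps27l lies on chromosome 9 (GRCm38 chr9:66946086-66949516, plus strand) and Rps27 on chromosome 3, and both code for 252 bases. Rps27l stood at 435, 319, 202, 554 and 900 CPM in replicates 1 to 5 of Lepr- HSC and at 244, 308, 129, 362 and 722 CPM in Lepr+ HSC. In Lepr- MPP it stood at 192, 174, 160, 450 and 371 CPM, and in Lepr+ MPP at 189, 165, 118, 458 and 409 CPM. Lepr- HSC had the highest value of the 4 groups in every replicate.

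Set against Rps27 in the same library, Rps27l was highest in Lepr- HSC in every replicate. The ratio of Rps27l to Rps27 was 0.814, 0.432, 0.681, 0.464 and 0.551 in replicates 1 to 5 of Lepr- HSC, with a mean of 0.588 ± 0.159 (SD, n = 5). In Lepr+ HSC it was 0.438, 0.328, 0.426, 0.315 and 0.321, with a mean of 0.366 ± 0.0610, and it was lower than in Lepr- HSC in 5 of 5 pairs. In Lepr- MPP it was 0.366, 0.333, 0.376, 0.443 and 0.425, with a mean of 0.389 ± 0.0450, lower than in Lepr- HSC in 5 of 5 pairs. In Lepr+ MPP the mean was 0.328 ± 0.0760, lower than in Lepr- MPP in 4 of 5 pairs. The ranges of Lepr- HSC and each of the other groups overlapped at their edges. The ratio was computed after the first results were seen and carries no test. The part in it of the megakaryocyte and platelet marker shift between the HSC groups was not tested. As single genes, neither Rps27l nor Rps27 passed the test between Lepr+ and Lepr- HSC, and with the block Rps27l stood at -0.47 ± 0.18 (edgeR, adjusted p = 0.295).

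Rpl22l1, the paralogue of the RNA-binding large subunit protein Rpl22, is expressed at a lower level than Rpl22 in these libraries. Its ratio to Rpl22 was 0.177, 0.182, 0.0958, 0.200 and 0.280 in replicates 1 to 5 of Lepr+ HSC and 0.129, 0.0937, 0.0957, 0.170 and 0.176 in Lepr+ MPP. It was higher in HSC in 5 of 5 pairs, by least in replicate 3, and the groups overlapped. Among Lepr- cells it was higher in HSC in 4 of 5 pairs, with means of 0.153 ± 0.0560 and 0.132 ± 0.0535. Rps27rt, which differs in place but shares sequence with Rps27, had a ratio to it between 0.00523 and 0.00868 over all libraries. The ratio was higher in Lepr+ than in Lepr- HSC in 5 of 5 pairs, with means of 0.00729 ± 0.00117 and 0.00653 ± 0.000928 (SD, n = 5), and the groups overlapped. Whether its counts include reads of Rps27 was not tested. The ratios of Rpl7l1 to Rpl7 and of Rpl36al to Rpl36a were also examined. Neither went 1 way in 5 of 5 pairs in any of the 4 comparisons. All these ratios were computed after the first results were seen and carry no test.

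**Figure D5:**
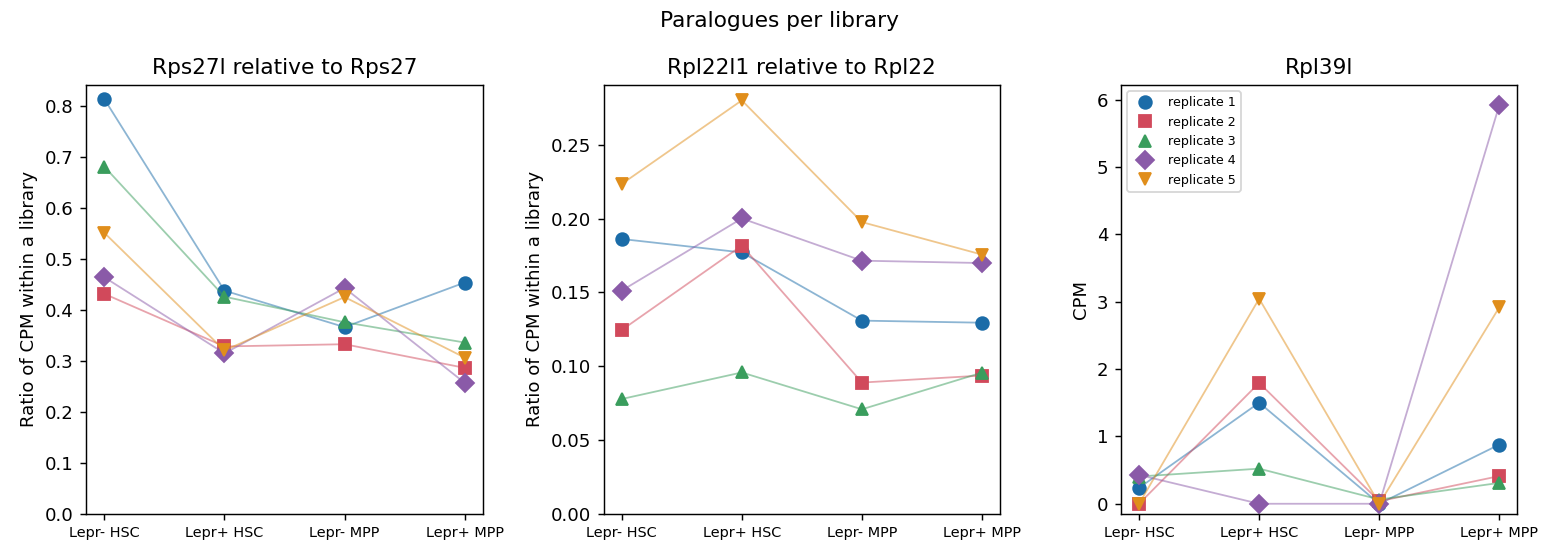
Ratio of Rps27l to Rps27 (left) and of Rpl22l1 to Rpl22 (middle) within a library, and CPM of Rpl39l (right), in the 4 groups (x axis), with lines joining libraries of 1 replicate number. The Rps27l ratio is highest in Lepr- HSC in every replicate, and Rpl39l is above 0 in all 5 Lepr+ MPP libraries.

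Rpl39l, a paralogue of Rpl39 best known from the testis, was near its limit of detection. It stood at 0.236, 0, 0.405, 0.428 and 0 CPM in replicates 1 to 5 of Lepr- HSC and at 1.5, 1.80, 0.522, 0 and 3.05 CPM in Lepr+ HSC. In Lepr- MPP it stood at 0, 0.0379, 0.0628, 0 and 0 CPM, and in Lepr+ MPP at 0.880, 0.412, 0.310, 5.92 and 2.92 CPM. The MPP groups did not overlap, and the HSC groups did. Over the groups it had 128 counts in Lepr+ MPP and 3 in Lepr- MPP, a ratio per library size of 44.8 with a 95% exact binomial interval of 14.97 to 220 that covers counting error only. In HSC it had 120 and 23 counts, a ratio of 4.99 (3.18 to 8.18).

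The call on Rpl39l depended on the tool. Its adjusted p between Lepr+ and Lepr- MPP was 0.136 in edgeR, 0.266 with the block and 0.00175 in DESeq2, which called 1.29% of all genes in that comparison. Without the 3 libraries least like their group the edgeR value was 0.636. Stromal marker genes were also higher in Lepr+ MPP. Their summed level was 11.1 to 37.7 CPM in Lepr- MPP and 137 to 3287 CPM in Lepr+ MPP. In replicates 1 to 5 of Lepr+ MPP it was 137, 763, 668, 835 and 3287 CPM. Replicates 4 and 5 were the highest for both this sum and Rpl39l, though not in the same order. In edgeR without the block 6 of the 12 rose (Cxcl12, Adipoq, Col1a2, Col3a1, Dcn and Igfbp5), where 0.2% of all genes were called. With the block 3 rose (Cxcl12, Dcn and Igfbp5), where 0.103% of all genes were called. In Lepr+ HSC the same sum was 29.9 to 192 CPM, against 15.8 to 207 in Lepr- HSC. Endothelial markers were at 355 to 591 CPM in Lepr+ MPP and 193 to 377 in Lepr- MPP. Here 3 of 8 rose without the block and 1, Fabp4, with it, where 0.2 and 0.103% of all genes were called. B and plasma cell markers summed to 83.0 to 4456 CPM in Lepr+ MPP and 112 to 278 CPM in Lepr- MPP. Of these Igkc, an immunoglobulin light chain, had means of 863 and 0.355 CPM and rose with the block (adjusted p = 0.0360, edgeR; 0.0587 without it). The part of these cell types in the Rpl39l values was not tested.

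Other genes of the ribosome pathway, from lists fixed with the members, gave few calls. In edgeR without the block, 0 of 32 assembly factors, 0 of 11 RNA polymerase I genes, 0 of 14 elongation factors and other pyrimidine-start messenger RNAs, 0 of 77 mitochondrial ribosomal proteins and neither Fau nor Rack1 passed in any of the 5 tests. Among all genes tested 0.103, 0.2, 2.73, 0.466 and 0% passed in these tests, so few calls or none would be met in lists of this size. Of 14 growth regulators, Mycn, a paralogue of Myc that drives ribosome production, rose in HSC. Its level was 299 ± 27.8 CPM (SD, n = 5) in Lepr- HSC, 409 ± 84.6 in Lepr+ HSC, 190 ± 37.9 in Lepr- MPP and 196 ± 31.7 in Lepr+ MPP. The log2 fold change between HSC and MPP was 0.65 ± 0.17 among Lepr- cells (adjusted p = 0.0400, edgeR) and 1.06 ± 0.17 among Lepr+ cells (adjusted p = 0.00707, edgeR). The call among Lepr- cells was lost in 21 of 37 alternatives and that among Lepr+ cells in 5 of 37.

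With the replicate block, several assembly factors and mitochondrial ribosomal proteins rose in Lepr- HSC over Lepr- MPP. They were 4 of 32 assembly factors, Nhp2, Nop10, Nip7 and Eif6, and 18 of 77 mitochondrial ribosomal proteins, against 7.49% of all genes. No share over other short or abundant genes was computed for this comparison. Nhp2, a protein of the particles that modify ribosomal RNA, stood at 345 ± 106 CPM (SD, n = 5) in Lepr- HSC, 232 ± 75 in Lepr+ HSC, 199 ± 71.0 in Lepr- MPP and 176 ± 85.7 in Lepr+ MPP. With the block it rose in HSC among Lepr- cells (0.80 ± 0.12, adjusted p = 0.000482, edgeR) and fell in Lepr+ HSC (-0.57 ± 0.12, adjusted p = 0.0261, edgeR). Mrpl42 moved the same way, at 0.74 ± 0.10 (adjusted p = 0.00019, edgeR) and -0.46 ± 0.10 (adjusted p = 0.0296, edgeR). The shift in megakaryocyte and platelet markers between the HSC groups goes with both falls, and its part was not tested. Myc fell in Lepr- HSC relative to Lepr- MPP with the block (-0.30 ± 0.08, adjusted p = 0.0303, edgeR). Between replicate numbers, 57 of 77 mitochondrial ribosomal proteins, 17 of 32 assembly factors and 11 of 14 pyrimidine-start messenger RNAs differed, against 24.7% of all genes. The figure was higher for abundant and for short genes, at 66.6% of genes outside the members with at least 100 CPM. It was 51.9% of coding genes outside the members with a principal transcript under 1000 bases.

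The sort was checked on its antigens and on markers of other cells. Mean Slamf1, which encodes CD150, was 46.6 CPM for HSC without and 41.3 CPM for HSC with the receptor, against 5.11 and 5.02 CPM for the MPP groups. Mean Lepr was 0.0447 CPM for HSC and 0.274 CPM for MPP sorted as negative, against 3.65 and 23.2 CPM for those sorted as positive. The SD of Lepr was 4.598 CPM in Lepr+ HSC, above the mean, and 14.56 CPM in Lepr+ MPP. No test on Lepr is given here, so these means do not settle whether the sorted cells made the receptor. Stromal marker genes were also higher in Lepr+ MPP, and their part in the Lepr level was not tested. Mean Cd48 was 14.2 and 10.5 CPM for the HSC groups without and with the receptor and 50.5 and 25.6 CPM for the MPP groups, though both cell types were gated as CD48-. Mean Ly6a, which encodes Sca-1, was 65.1 CPM for HSC without and 164 CPM for HSC with the receptor, and rose with the block. For the MPP groups without and with the receptor it was 157 and 239 CPM, above the matching HSC groups. Mean Hlf was 154 and 325 CPM for the HSC groups and 410 and 504 CPM for the MPP groups. Of 8 stem and progenitor markers, Slamf1 was called higher in Lepr- HSC than in Lepr- MPP, and Ly6a, Hlf, Cd34 and Flt3 lower, in edgeR without the block. Megakaryocyte and platelet markers summed to 104 to 225 CPM in Lepr- MPP and 91.2 to 303 CPM in Lepr+ MPP, below both HSC groups.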

How the data were processed

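RNA-seq counts from 20 libraries were used, 5 in each of 4 groups. The deposited values are raw counts of read pairs per gene, made by the authors with cutadapt 2.1, STAR 2.7.1a and HTSeq 0.11.2 on GRCm38, per the submitters' processing notes. The counting mode is not given in the sources used here. cDNA came from a SMART-Seq v4 kit and libraries from Nextera XT, per the labels' protocols, while another label names RNA depleted of ribosomal RNA, and which holds is unclear. As the protocol has them these kits keep no strand, so reads of overlapping and antisense genes cannot be separated. The count files carry separate lines for read pairs that matched no gene (7.22 to 17.7 percent of all pairs), several genes or several places, and these were left out of library sizes.

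Gene counts per library ran from 9532993 to 31589794, which limits the precision for genes with few counts. In fits without the block, the spread between replicate numbers also enters the SE. For Rps27l between HSC and MPP among Lepr- cells, the SE was 0.48 without and 0.18 with the block. Intervals cover counting error only, since reads copied by PCR were not tagged by molecule. Symbols and positions came from GENCODE M21 (55480 of 55573 identifiers matched), and start sequences from RefSeq's table for GRCm38.p6.

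Tests used edgeR 4.0.16 in R 4.3.3 (TMM, filterByExpr with minimum count 10 and total 15, robust quasi-likelihood F tests, two-sided, group as the only term) on all 20 libraries, with Benjamini-Hochberg adjustment over 16509 genes at 0.05. CPM are counts per 1e6 of TMM-scaled library size, and log levels add 2 CPM. SE are fitted values. Alternatives were the replicate block, DESeq2 1.42.0, limma voom (limma 3.58.1), other scalings and filters, libraries left out and the libraries of single months by date code. The edgeR fit without the block was tested on simulated counts. These had no shared difference between replicate numbers, so that test does not cover such a difference or the block fit.

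Replicate numbers were taken to mark shared mice, which is an inference. The design text gives 2 mice per replicate. The date code in the deposited names, whose meaning the labels do not give, is the same in all 4 groups. Deviations of the 30 same-number pairs correlated at a median of 0.264 (-0.065 to 0.562) and of the 120 others at -0.086. P-values of the fits without the block measure the spread between these pools. Those of the block fit and of the test between replicate numbers measure the spread left once group and number are taken out.

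The members and lists were chosen with earlier results of these data known. Named genes were those called in any comparison, the 3 highest and 3 lowest fold changes per comparison whose higher group reached 5 CPM, and a fixed set of paralogues and disease genes. Some genes the rule named are not reported here, though they remain in the fits and counts. From related lists, up to 3 genes per list and comparison by smallest p could be named. Nop10, Nip7, Eif6 and the levels of sort antigens were named outside that rule after their values were seen. The replicate-number test, its background sets, the length comparison and the paralogue ratios were also added after the first results were seen.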

Additional observations from a re-analysis of the deposited data

Results flagged for a closer look

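Rpl36al, a copy of Rpl36a overlapped by Gm49383, stood at 5.15 CPM in Lepr+ HSC replicate 5, apart from the other 4 libraries of its group by 0.746 of the group's range. The ratio of Rpl39l to Rpl39 was 0.00205 in Lepr- HSC replicate 3, apart from the others by 0.712 of the range. Both exceed the 95% critical value of 0.71 for 5 samples, in 60 groups of values examined, where chance alone gives about 1 in 20. The Rpl39l value rests on 11 counts.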

How the results depend on the processing

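Changes of scaling, filter or samples left the count of called members at 0 except 1 between Lepr+ and Lepr- MPP in DESeq2 (Rpl39l) and 3 between HSC and MPP among Lepr- cells with the replicate block. The block, which uses the pairing by pool, changed no other call among members. Without the 3 libraries least like their group, the median member fold change (log2) was -0.32 for Lepr in HSC, -0.64 for Lepr in MPP, 0.77 for HSC against MPP among Lepr+ cells and 0.28 for the difference of Lepr effects, and the cause was not tested. Leaving out 1 replicate or library gave medians of -0.32 to 0.11, -0.15 to 0.33, 0.26 to 0.63 (HSC against MPP among Lepr- cells), -0.03 to 0.58 and -0.50 to 0.07. Of 38 named fold changes, 19 changed sign under some alternative. Without the same 3 libraries these were Rps27 (-0.25) and Rps9 (-0.11) for Lepr in HSC, Rpl4 (0.028), Rps21 (-0.73), Rps27 (-0.58) and Rps28 (-0.89) for Lepr in MPP, Rps19bp1 (0.28) and Rpl13a (0.52) for HSC against MPP among Lepr+ cells, and Rps16 (0.31), Rpl13a (0.17) and Rpl7l1 (-0.14) for the difference. In the libraries with a July date code they were Rpl29 (0.17, Lepr in MPP), Rpl7l1 (-0.13, HSC against MPP among Lepr-), Rps27rt (-0.092) and Rpl23a (-0.18, difference), and in those with a June code Rpl4 (0.00488) and Rpl13a (0.31), both HSC against MPP among Lepr+. For Lepr in MPP, Rps27l was 0.017 in DESeq2 and 0.017 with its size factors in edgeR, and Rps28 was -0.045 in limma voom. For HSC against MPP among Lepr+ cells, limma voom gave Rps19bp1 0.010 and Rpl13a 0.15, and the block gave Rpl13a 0.031. With library totals only, HSC against MPP among Lepr- cells gave Rpl3 -0.071 and Rpl7l1 -0.0069. Leaving out 1 replicate or library turned Rps27 (-0.25 to 0.59) and Rps9 (-0.11 to 0.42) for Lepr in HSC, and Rpl29 (-0.26 to 0.021), Rps21 (-0.10 to 0.62), Rps27 (-0.0085 to 0.61), Rps27l (-0.29 to 0.25) and Rps28 (-0.17 to 0.55) for Lepr in MPP. For HSC against MPP it turned Rpl3 (-0.043 to 0.18), Rpl4 (-0.27 to 0.074) and Rpl7l1 (-0.0018 to 0.225) among Lepr- cells, and Rpl4 (-0.26 to 0.093), Rpl13a (-0.26 to 0.42) and Rps19bp1 (-0.33 to 0.076) among Lepr+ cells. For the difference it turned Rpl13a (-0.65 to 0.071), Rpl23a (-0.31 to 0.45), Rpl7l1 (-0.040 to 0.16), Rps16 (-0.83 to 0.028) and Rps27rt (-0.28 to 0.36). Depth limits Rpl39l, Rpl24 and Rps10, with means under 3 CPM.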
